A study of Homo sapiens with 24 samples.

Results

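The integrin and laminin genes were read out of an RNA-seq experiment on a human osteosarcoma cell line. They were chosen by name, by a rule that used none of their values, but with earlier results of these data known. The rule took every gene whose symbol was that of an integrin alpha or beta subunit or of a laminin alpha, beta or gamma chain. This gave 38 genes of 57820 counted, 26 integrins (18 alpha and 8 beta subunits) and 12 laminin chains. ITGB3 was listed under 2 gene identifiers, 1 of which held 0 counts in every library, so the 38 genes filled 39 entries, and fragments from exons that both entries share could not be assigned to either.

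The cells were U2OS, an established human osteosarcoma line, and AID-DIvA, a U2OS derivative that carries an inducible AsiSI restriction enzyme for making DNA breaks at known sites. Both were used as wild type (WT) and as ID3-KO cells, which were made to lack ID3, a helix-loop-helix protein without a DNA-binding domain. Mocetinostat, an inhibitor of class I histone deacetylases, was given for a day. AID-DIvA cells, WT and ID3-KO, were either untreated or treated and then kept for a further day in drug-free medium (recovered), and U2OS cells, WT and ID3-KO, were either untreated or treated. These 8 groups of 3 replicates made 24 libraries. That the treated U2OS libraries were collected without recovery was inferred from labels that name the drug and no recovery, so recovery and cell line label cannot be told apart. The U2OS samples' descriptions also carry the name DivA, and the titles of the AID-DIvA libraries, which were followed here, disagree with the treatment given in another of their labels. Whether the ID3-KO cells are 1 clone is not given in the sources used here, and no 4-hydroxytamoxifen, the inducer of AsiSI, is named for these libraries.

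Each library held 37878751 to 76906266 assigned fragments. ID3 itself was at 47.9 to 80.7 CPM, the count scaled to library size, in the 6 untreated WT libraries and at 29.3 to 38.8 CPM in the 6 untreated ID3-KO libraries, so it was lower but not absent, and its RNA level does not check the loss of the protein. Of 10 genes listed as osteosarcoma and mesenchymal markers, which summed to 2469 to 5017 CPM, COL1A1, SPARC and VIM were each at 433 CPM or more in every library, whereas TWIST1 was at or below 0.0273 CPM and COL1A2 at or below 1.37 CPM. The sum was 3552 to 5017 CPM in untreated and 2469 to 3357 CPM in treated libraries, and its part in the differences below was not tested. Replicate 1 of untreated WT U2OS stood apart from its 2 partners, at a chi-square per gene of 92.4 and 82.0 against 4.06 between the partners, so the counts of calls and the members described in the comparisons that use it are also given without it.

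Integrins are transmembrane receptors made of 1 alpha and 1 beta subunit, and the alpha subunit largely sets which matrix protein is bound. Laminins are trimers of 1 alpha, 1 beta and 1 gamma chain that make up the basement membrane, the sheet on which epithelial and many other cells rest. ITGB1 pairs with most of the alpha subunits that bind collagen, laminin and fibronectin, whereas ITGB2 and ITGB7 pair with alpha subunits of white blood cells. Osteoblast-like tumour cells attach through collagen, fibronectin and laminin receptors. Histone deacetylases remove acetyl groups from histones, which is associated with closed chromatin.

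The genes that passed the test in the same direction in all 4 treatment comparisons described below were ITGA2, ITGA6, ITGAM and ITGAX, which were higher, and LAMA4, which was lower. The 250 bases before the start of transcription of 4 of them are given from RefSeq (GRCh38.p14, whereas the counts were made on hg19), because these are the members that moved together. There was no window for ITGAX. Capitals mark each E-box, the letters CANNTG with N for any base, which is the motif of the E proteins whose DNA binding ID3 is known to block. ITGA6 has 2 windows, of which the one further along the gene is printed.
ITGA2 (chr5:52989102-52989351, plus strand): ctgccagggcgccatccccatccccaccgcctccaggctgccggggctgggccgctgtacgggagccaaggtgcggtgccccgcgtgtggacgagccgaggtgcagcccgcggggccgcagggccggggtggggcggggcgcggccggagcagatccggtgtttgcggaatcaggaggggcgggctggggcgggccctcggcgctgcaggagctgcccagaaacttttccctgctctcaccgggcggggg
ITGA6 (chr2:172427336-172427585, plus strand): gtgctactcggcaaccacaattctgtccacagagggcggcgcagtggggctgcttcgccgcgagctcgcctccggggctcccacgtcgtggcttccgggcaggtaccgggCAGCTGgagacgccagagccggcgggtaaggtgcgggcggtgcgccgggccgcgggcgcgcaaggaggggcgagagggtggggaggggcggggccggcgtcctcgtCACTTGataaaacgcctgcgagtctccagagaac
ITGAM (chr16:31259725-31259974, plus strand): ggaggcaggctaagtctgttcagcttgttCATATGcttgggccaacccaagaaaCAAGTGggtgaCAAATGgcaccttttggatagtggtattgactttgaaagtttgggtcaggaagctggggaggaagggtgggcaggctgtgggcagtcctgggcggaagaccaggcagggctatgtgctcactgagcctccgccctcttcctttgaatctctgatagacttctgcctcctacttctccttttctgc
LAMA4 (chr6:112254568-112254817, minus strand): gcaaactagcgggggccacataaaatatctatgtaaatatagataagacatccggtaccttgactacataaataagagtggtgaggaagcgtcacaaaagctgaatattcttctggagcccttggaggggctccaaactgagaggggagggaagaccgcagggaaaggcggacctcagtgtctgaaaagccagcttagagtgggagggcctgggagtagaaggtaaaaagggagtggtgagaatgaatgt
The ITGAM window held 3 E-boxes and the printed ITGA6 window 2, the other ITGA6 window held 7, and those of ITGA2 and LAMA4 held 0. CANNTG reads the same on both strands, and 61.8% of the 35116 RefSeq windows of the same length held it at least once. The GC box GGGCGG, counted on both strands, occurred 4 times in the ITGA2 window, 3 times in the printed ITGA6 window, 2 times in that of ITGAM and 0 times in that of LAMA4 and in the other ITGA6 window, and 42.6% of all windows held it. RefSeq windows were at hand for 26 of the 38 genes. The 33 windows of these genes held an E-box in 54.5% and a GC box in 51.5%. These counts describe letters and say nothing of binding.

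Levels between genes were compared by TPM, which scale the counts of a library by transcript length. ITGB1, the shared beta subunit, stood first in every group, at a mean of 437 to 717 TPM. It made up 64.3 to 75.9% of the summed TPM of the 8 beta subunits, and with ITGB5, a vitronectin receptor subunit, 96.0 to 98.8%. Among alpha subunits ITGA3 and ITGA6, which bind laminin, ITGA5, which binds fibronectin, and ITGAV, which binds RGD-containing ligands such as vitronectin, held 82.7 to 89.5% of the summed TPM. LAMC1 was at 149 to 213 TPM and LAMB3 at 71.7 to 164 TPM. In each group 15 to 19 genes had a mean of at least 10 TPM and 4 to 8 entries had a mean under 1 CPM. LAMB4 never passed the filter on low counts, with at most 5 counts in a library, and ITGAL and ITGB6 stayed under 1 CPM in every group mean. The library that stands apart was the lowest of its group for several abundant members: in untreated WT U2OS ITGB1 was at 629.5, 884 and 901 CPM and LAMC1 at 299, 451 and 449.6 CPM in replicates 1, 2 and 3.

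**Figure D1:**
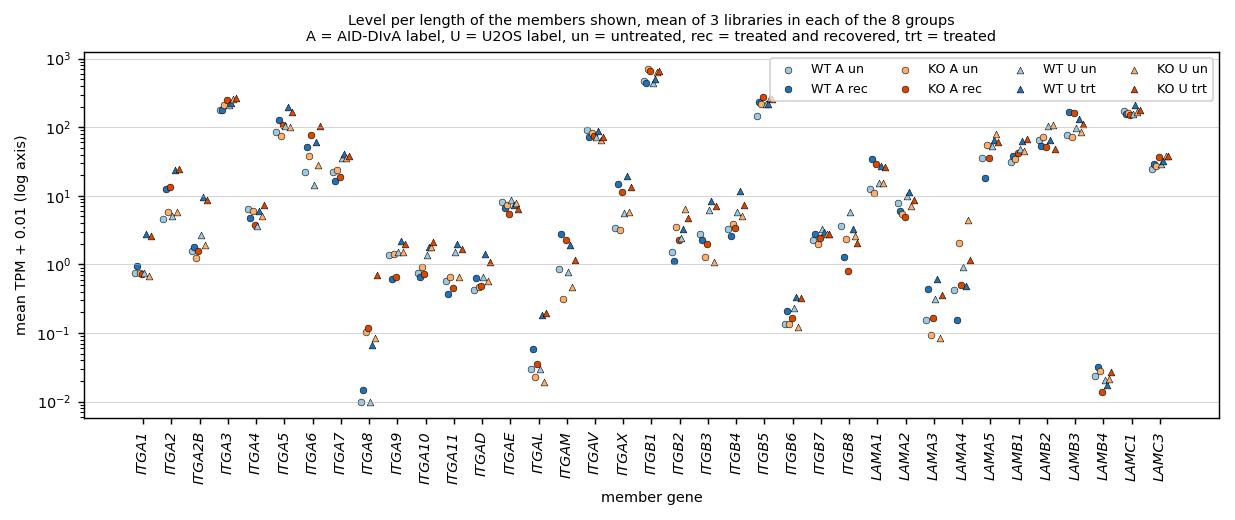
Mean TPM of 3 libraries (log axis, 0.01 added) for the genes shown in each of the 8 groups; circles are AID-DIvA and triangles U2OS, blue WT and orange ID3-KO, light untreated and dark treated. ITGB1 is the highest in every group, at 437 to 717 TPM, and LAMB4 is near the floor in every group.

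The first question was which integrin and laminin genes differ after mocetinostat. A gene was called when its adjusted p from edgeR's quasi-likelihood test was below 0.05 over all genes tested and its log2 fold change was beyond 1 in either direction. Fold changes are given on the log2 scale with their standard error. In bulk RNA, fewer cells of a kind and less RNA per cell cannot be told apart. After recovery, WT AID-DIvA cells had 7 of 35 tested members called higher (20% against 4.86% of all genes tested) and 3 called lower (8.57% against 2.52%). ID3-KO AID-DIvA cells had 7 of 36 called higher (19.4% against 4.9%) and 3 lower (8.33% against 2.56%). The 10 genes were identical: ITGA2, ITGA6, ITGAM, ITGAX, LAMA1, LAMA3 and LAMB3 were higher, and ITGA9, ITGB8 and LAMA4 were lower. In treated WT U2OS cells 8 of 36 were called higher (22.2% against 13.6%) and 1 lower (2.78% against 5.06%), and in treated ID3-KO U2OS cells 12 of 37 were called higher (32.4% against 14.6%) and 2 lower (5.41% against 5.77%). Without replicate 1 of untreated WT U2OS, 8 were called higher (14.4% of all genes) and 2 lower (5.56%) in WT U2OS. The lower calls in U2OS were thus near or below the share of all genes.

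Most higher calls in U2OS fell on integrins, which were also most of the members tested. All 8 higher calls in WT U2OS were integrins, of 25 integrins tested (32% against 13.6% of all genes). So were 11 of the 12 in ID3-KO U2OS, of 26 integrins tested (42.3% against 14.6%). The only laminin chain called higher there was LAMA3, in ID3-KO cells, 1 of 11 tested (9.09%). The lower calls in U2OS were all laminin chains, LAMA4 in both genotypes and LAMB2 in ID3-KO. They were 1 of 11 laminin chains tested in WT (9.09% against 5.06% of all genes) and 2 of 11 in ID3-KO (18.2% against 5.77%). In WT U2OS edgeR called 0 of 11 laminin chains higher, where 3 had an unadjusted p under 0.05 and DESeq2 called 0. After recovery in AID-DIvA, 3 of 11 tested laminin chains were called higher in each genotype (27.3% against 4.86% of all genes in WT and 4.9% in ID3-KO). The median log2 difference over the members tested was 0.05 in WT and 0.21 in ID3-KO AID-DIvA, and 0.32 in WT and 0.33 in ID3-KO U2OS, beside medians over all genes tested of -0.00050, -0.023, 0.0058 and 0.00086. The 18 tested genes called in none of the 4 comparisons included the abundant ITGB1, ITGA3, ITGA5, ITGAV, ITGB5, LAMB1 and LAMC1. LAMB4, which was not tested, is not among the 18. By the adjusted p alone 15 members were higher and 12 lower in WT AID-DIvA (23.9% and 23.0% of all genes), 16 and 9 in ID3-KO AID-DIvA (20.2% and 19.9%), 15 and 4 in WT U2OS (26.0% and 22.9%) and 21 and 7 in ID3-KO U2OS (35.8% and 34.0%). ITGA10, ITGB1 and LAMC1 had an adjusted p above 0.05 in all 4. Without replicate 1 of untreated WT U2OS, LAMC1 passed in WT U2OS (0.16 ± 0.03, adjusted p = 3.0e-05).

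**Figure D2:**
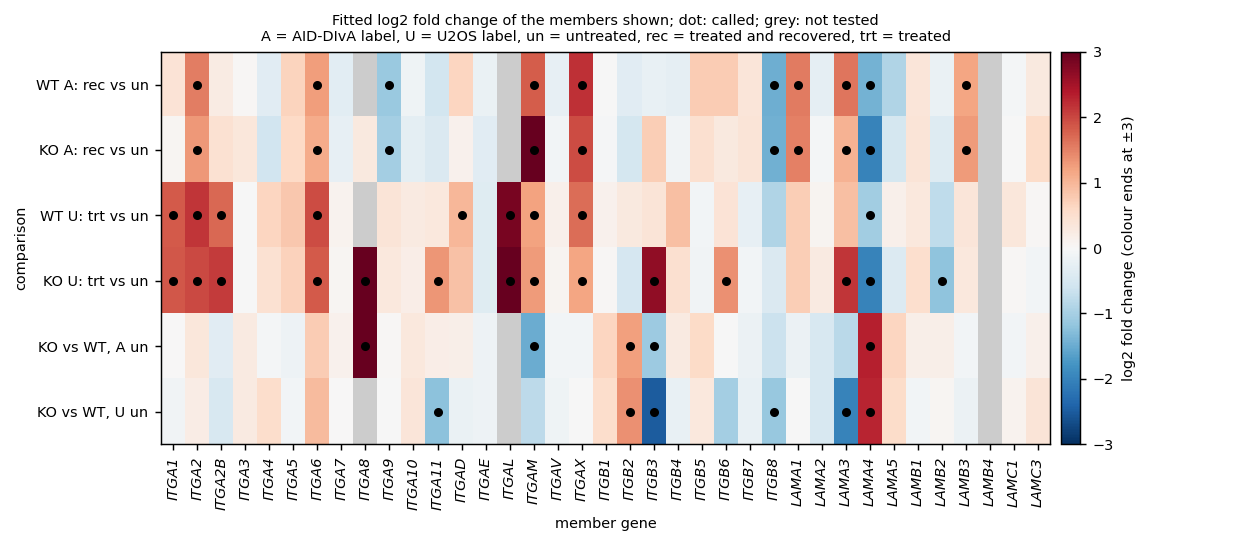
Fitted log2 fold change (colour, ending at 3 in both directions) of the member genes shown (columns) in the 4 treatment comparisons and the 2 untreated ID3-KO versus WT comparisons (rows). Dots mark called genes and grey cells genes not tested. ITGA2, ITGA6, ITGAM and ITGAX carry a dot in all 4 treatment rows in red, and LAMA4 in blue.

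Of the collagen receptors, ITGA2 (chr5:52285156-52390609, plus strand on hg19), the alpha subunit of a collagen receptor of epithelial cells and platelets, rose in all 4 comparisons. In WT AID-DIvA it was at 10.9, 11.6 and 12.4 CPM untreated and 49.8, 26.8 and 23.98 CPM after recovery (log2 1.54 ± 0.33, adjusted p = 0.018). Recovered replicate 1 was the highest of the 3, and the groups did not overlap. Without untreated replicate 2 the adjusted p was 0.056, and without untreated replicate 3 it was 0.055. In ID3-KO AID-DIvA it was at 16.4, 15.1 and 13.8 CPM and then 35.9, 37.7 and 37.9 CPM (log2 1.30 ± 0.08, adjusted p = 2.2e-06), again with no overlap. In WT U2OS it was at 7.29, 14.96 and 14.01 CPM untreated, replicate 1 being the lowest, and 54.8, 53.5 and 51.7 CPM treated (log2 2.15 ± 0.24, adjusted p = 2.3e-04, and 1.88 ± 0.05 without that replicate). In ID3-KO U2OS it was at 14.2, 13.4 and 14.7 and 58.0, 55.0 and 53.5 CPM (log2 1.99 ± 0.06, adjusted p = 1.6e-18). Within each genotype and label, every treated library thus lay above every untreated one.

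ITGA1 (chr5:52083730-52255040, plus strand), another collagen-binding alpha subunit, neighbours ITGA2 on the same chromosome and was called in the 2 U2OS comparisons. It was at 2.80, 4.33 and 5.08 CPM in untreated and 15.5, 13.1 and 14.8 CPM in treated WT U2OS (log2 1.84 ± 0.20, adjusted p = 2.0e-04, and 1.64 ± 0.09 without replicate 1). ID3-KO U2OS had 3.72, 3.85 and 3.83 CPM and 13.3, 14.2 and 13.8 CPM (log2 1.86 ± 0.08, adjusted p = 1.2e-15). In recovered AID-DIvA cells the difference was 0.40 ± 0.09 in WT (adjusted p = 0.0029) and 0.05 ± 0.13 in ID3-KO (adjusted p = 0.80), and the difference between the 2 cell line labels was tested separately. ITGA11, a collagen receptor subunit of fibroblasts, was called higher in ID3-KO U2OS, from 1.12, 1.10 and 1.05 to 2.84, 2.71 and 2.59 CPM (log2 1.32 ± 0.14, adjusted p = 2.0e-08). The WT U2OS libraries had 1.89, 3.26 and 2.44 CPM untreated and 3.47, 3.17 and 2.74 CPM treated, groups that overlapped (log2 0.31 ± 0.21, adjusted p = 0.26, and 0.12 ± 0.14 without replicate 1). ITGA10 was at 1.37 to 3.81 CPM in the group means and passed in no treatment comparison.

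Of the laminin receptors, ITGA6 (chr2:173292082-173371181, plus strand), which pairs with ITGB1 or ITGB4, rose in all 4 comparisons from a level well above the floor. WT AID-DIvA had 48.8, 47.4 and 48.0 CPM untreated and 143, 99.9 and 99.3 CPM after recovery (log2 1.26 ± 0.15, adjusted p = 5.4e-04). ID3-KO AID-DIvA had 88.5, 84.2 and 77.0 CPM and 160.4, 184 and 191 CPM (log2 1.11 ± 0.09, adjusted p = 1.1e-05). The untreated ID3-KO libraries were already above the untreated WT ones. In U2OS the WT libraries went from 23.2, 32.0 and 32.8 to 111, 112 and 117 CPM (log2 1.961 ± 0.13, adjusted p = 2.0e-05, and 1.82 ± 0.04 without untreated replicate 1), and the ID3-KO libraries from 57.7, 57.0 and 54.9 to 200.4, 208 and 196 CPM (log2 1.84 ± 0.04, adjusted p = 1.3e-19). No treated library overlapped an untreated one of its genotype and label. The other laminin-binding alpha subunits were called in no treatment comparison: ITGA3 stayed at group means of 563 to 866 CPM, with differences of 0.05, 0.34, -0.01 and -0.00010 in the order WT and ID3-KO AID-DIvA, WT and ID3-KO U2OS. ITGA7, known from muscle, stayed at 35.4 to 72.3 CPM. ITGB4, the partner of ITGA6 in hemidesmosomes, was at 12.4, 11.9 and 11.5 CPM in untreated and 24.8, 22.1 and 19.9 CPM in treated WT U2OS (log2 0.91 ± 0.10, adjusted p = 2.2e-04, and 0.93 ± 0.07 without replicate 1), which passed the adjusted p but not the fold.

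**Figure D3:**
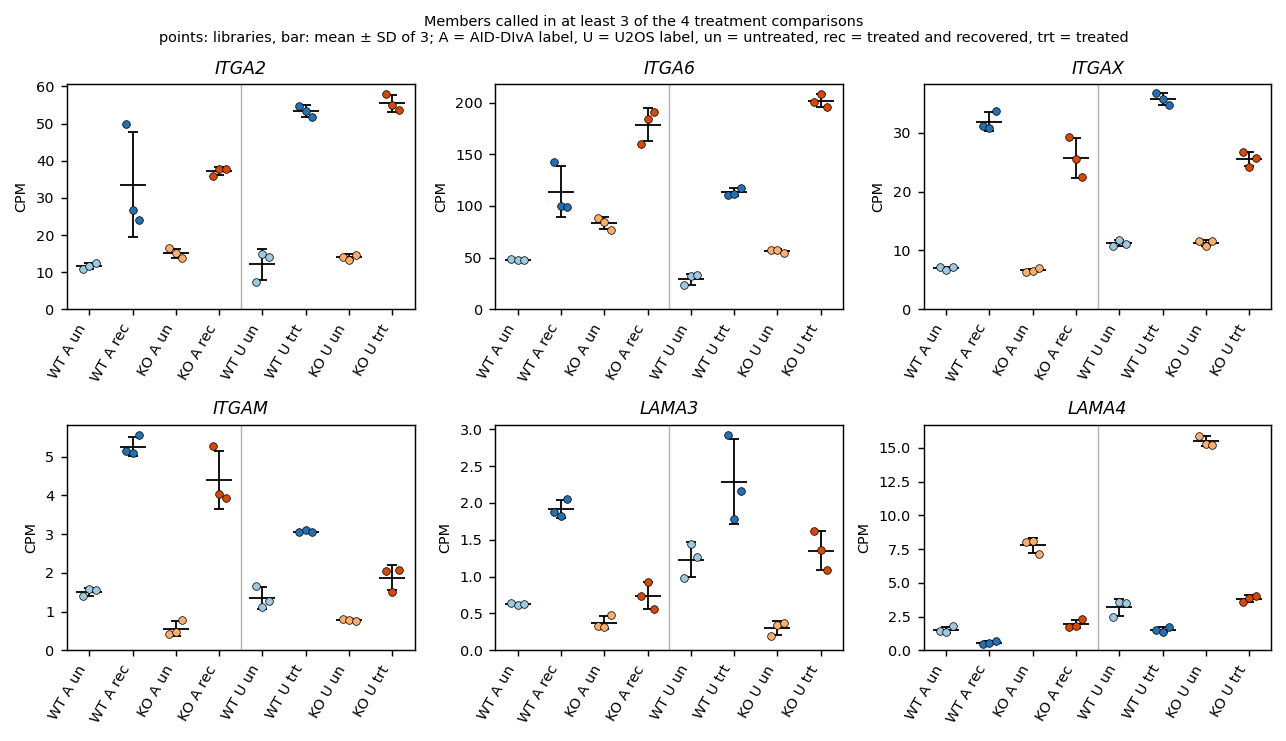
CPM (linear axes from 0) in each library of the 6 genes called in at least 3 of the 4 treatment comparisons, by group; points are libraries and bars the mean ± SD of 3. For ITGA2, ITGA6, ITGAX and ITGAM the treated libraries lie above the untreated ones of the same cells in all 4 pairs of groups, and for LAMA4 below them.

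The alpha subunits of white blood cells gave the other genes that were higher in all 4 comparisons. ITGAX (chr16:31366455-31394318, plus strand), known as CD11c, a subunit of dendritic cells and macrophages, was at 7.17, 6.63 and 7.12 CPM in untreated and 31.2, 30.7 and 33.7 CPM in recovered WT AID-DIvA (log2 2.20 ± 0.07, adjusted p = 4.1e-11). ID3-KO AID-DIvA had 6.41, 6.57 and 6.97 and 29.2, 25.5 and 22.5 CPM (log2 1.95 ± 0.10, adjusted p = 7.0e-07). Neither pair overlapped. In U2OS the WT cells went from 10.8, 11.8 and 11.1 to 36.7, 35.7 and 34.7 CPM (log2 1.68 ± 0.07, adjusted p = 3.0e-06, and 1.64 ± 0.06 without untreated replicate 1) and the ID3-KO cells from 11.5, 10.7 and 11.6 to 26.7, 24.2 and 25.7 CPM (log2 1.19 ± 0.06, adjusted p = 7.6e-14). ITGAM (chr16:31271311-31344213, plus strand), known as CD11b, was lower in level: 1.39, 1.58 and 1.55 CPM untreated and 5.15, 5.09 and 5.55 CPM recovered in WT AID-DIvA (log2 1.81 ± 0.11, adjusted p = 2.2e-08). In ID3-KO AID-DIvA it was at 0.412, 0.478 and 0.774 CPM and 5.27, 4.03 and 3.92 CPM (log2 2.996 ± 0.20, adjusted p = 3.8e-06). In WT U2OS it was at 1.66, 1.12 and 1.27 and 3.06, 3.09 and 3.05 CPM (log2 1.20 ± 0.17, adjusted p = 8.4e-04, and 1.38 ± 0.16 without replicate 1), and in ID3-KO U2OS at 0.814, 0.793 and 0.749 and 2.05, 1.503 and 2.07 CPM (log2 1.27 ± 0.18, adjusted p = 1.3e-06). ITGAM, ITGAX and ITGAD lie beside each other on chromosome 16.

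ITGAD was called in WT U2OS, at 1.19, 0.565 and 0.853 CPM untreated and 1.88, 1.59 and 1.71 CPM treated (log2 1.004 ± 0.27, adjusted p = 0.015, and 1.33 ± 0.22 without replicate 1), but 81.7% of its strand-assigned fragments over all libraries lay on the opposite strand. The call was lost on leaving out any 1 of 4 libraries, with log2 differences of 0.75 to 1.01, and with DESeq2 or its size factors, at 0.99 with each. From its own strand it had 14 fragments over the 3 untreated and 101 over the 3 treated libraries. ITGAL, a T cell subunit, was called in both U2OS comparisons but stayed under 1 CPM: in ID3-KO U2OS it had 3 fragments untreated and 62 treated, a ratio of 19.2 with a 95% counting interval of 6.26 to 95.4 that covers counting error only. The ITGAL call in WT U2OS was lost without untreated replicate 3, treated replicate 1 or treated replicate 3, with an adjusted p of 0.055 to 0.082. ITGAE was lower at adjusted p alone in all 4 comparisons, with log2 differences from -0.37 to -0.20. ITGB2, the beta subunit that ITGAM, ITGAX, ITGAL and ITGAD need, was called in none: it went from 3.29, 3.21 and 3.26 to 2.27, 2.65 and 2.70 CPM in WT AID-DIvA and from 12.8, 12.5 and 13.9 to 9.75, 9.42 and 8.49 CPM in ID3-KO U2OS (log2 -0.50 ± 0.07, adjusted p = 2.4e-06). In WT U2OS the difference had the other sign, from 5.22, 4.83 and 5.04 to 6.16, 6.27 and 6.08 CPM (log2 0.30 ± 0.09, adjusted p = 0.028, and 0.33 ± 0.10 without replicate 1). Of 14 markers of white blood cells, 13 were under 1 CPM in every library and the sum over all 14 was 1.86 to 4.45 CPM, so ITGAX alone exceeded the sum in every library. The exception was CD3D, which reached 2.82 CPM and was called higher in all 4 comparisons, while PTPRC, carried by nearly all white blood cells, was at or below 0.407 CPM. The sum was 1.86 to 2.65 CPM in untreated and 2.58 to 4.45 CPM in treated libraries, and its part in the integrin differences was not tested.

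Of the RGD-binding alpha subunits, ITGA2B, the platelet fibrinogen receptor subunit, was called in both U2OS comparisons. It was at 4.88, 4.13 and 4.53 CPM in untreated and 14.3, 14.8 and 15.6 CPM in treated WT U2OS (log2 1.73 ± 0.10, adjusted p = 8.1e-06, and 1.80 ± 0.09 without replicate 1), and at 3.18, 2.99 and 3.49 and 14.2, 12.5 and 14.6 CPM in ID3-KO U2OS (log2 2.11 ± 0.09, adjusted p = 1.5e-15). In the treated U2OS groups 29.3% and 47.2% of its strand-assigned fragments were on the opposite strand, against 1.17% and 2.61% in the untreated ones. From its own strand alone the differences were 1.25 ± 0.11, adjusted p = 7.0e-05, and 1.22 ± 0.11, adjusted p = 1.2e-09, in WT and ID3-KO. The platelet markers GP9 and PF4 were at 0 in every group but treated WT U2OS, and the sum of the 7 endothelial and platelet markers found in the files was 3.53 to 16.9 CPM. CDH5, an endothelial cadherin, was called higher in all 4 treatment comparisons and stayed under 1 CPM. KDR, a VEGF receptor of endothelial cells, was called higher in all but WT AID-DIvA, and its group mean went from 0.231 to 4.69 CPM in WT U2OS and from 0.0837 to 5.47 CPM in ID3-KO U2OS. The sum went from between 6.29 and 10.3 to between 16.0 and 16.9 CPM in WT U2OS and from between 5.78 and 5.99 to between 13.1 and 13.4 CPM in ID3-KO U2OS, where ITGA2B was called, and the part of these cells in the ITGA2B difference was not tested. ITGA8, which pairs with ITGB1, was at 0 in all 6 untreated WT libraries. In ID3-KO U2OS it went from 0.194, 0.152 and 0.160 to 1.48, 1.59 and 1.42 CPM (log2 3.15 ± 0.24, adjusted p = 8.2e-11). By mean TPM it went from 0.0743 to 0.690 in ID3-KO U2OS and from 0 to 0.0574 in WT U2OS. In WT U2OS it did not pass the filter on low counts and was not tested. Its response was not called as different between the genotypes in U2OS. ITGA5 passed the adjusted p in all 4 comparisons but not the fold, with log2 differences of 0.66, 0.59, 0.80 and 0.69. Its group means were 187 to 413 CPM. ITGAV, at 163 to 235 CPM, was called in none.

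ITGA9, which binds tenascin-C and VCAM1, was lower after recovery in AID-DIvA, from 3.70, 3.54 and 3.65 to 1.95, 1.66 and 1.40 CPM in WT (log2 -1.11 ± 0.13, adjusted p = 1.2e-05) and from 3.40, 3.77 and 4.14 to 2.11, 1.81 and 1.65 CPM in ID3-KO (log2 -1.03 ± 0.13, adjusted p = 1.7e-04). In U2OS the fitted difference had the other sign, 0.40 ± 0.18 in WT (adjusted p = 0.10, and 0.27 ± 0.12 without replicate 1) and 0.33 ± 0.10 in ID3-KO (adjusted p = 0.0070). Over all libraries 40.0% of its strand-assigned fragments were on the opposite strand. In U2OS its own-strand fragments went from 578 untreated to 927 treated in WT and from 528 to 857 in ID3-KO, unscaled. Those of the opposite strand went from 499 to 274 and from 555 to 275. From its own strand the AID-DIvA differences were -1.27 ± 0.13, adjusted p = 6.1e-06, in WT and -1.14 ± 0.12, adjusted p = 1.1e-04, in ID3-KO. The call was lost in WT without recovered replicate 3 (-0.99) and in ID3-KO without recovered replicate 3 (-0.95) or untreated replicate 3 (-0.96). Its relative ITGA4, at 8.44 to 16.5 CPM in the group means, was called in none, with differences of -0.34 and -0.59 in AID-DIvA and 0.64 (0.43 ± 0.08 without replicate 1) and 0.45 in U2OS.

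Among the beta subunits, ITGB8 (chr7:20370325-20455377, plus strand), which with ITGAV activates latent TGF-beta, was called lower in AID-DIvA. WT cells had 18.7, 16.7 and 17.5 CPM untreated and 6.09, 6.54 and 6.42 CPM recovered (log2 -1.46 ± 0.07, adjusted p = 4.1e-09), and ID3-KO cells 12.2, 11.5 and 10.5 and 3.76, 4.23 and 4.57 CPM (log2 -1.44 ± 0.10, adjusted p = 5.6e-06). WT U2OS had 18.1, 30.2 and 30.1 CPM untreated and 14.4, 13.2 and 13.9 CPM treated (log2 -0.91 ± 0.19, adjusted p = 0.0049). Without untreated replicate 1, the lowest of its group, the difference was -1.12 ± 0.06 and the gene was called. ID3-KO U2OS had 13.2, 11.6 and 11.1 and 8.52, 9.07 and 8.91 CPM (log2 -0.43 ± 0.07, adjusted p = 2.2e-05). ITGB3 (chr17:45331212-45421658, plus strand), which pairs with ITGAV and ITGA2B, was called higher in ID3-KO U2OS, from 1.42, 1.60 and 1.75 to 10.1, 9.61 and 10.5 CPM (log2 2.67 ± 0.10, adjusted p = 2.6e-16), with no overlap. WT U2OS cells had 4.37, 11.1 and 11.6 CPM untreated and 11.6, 11.9 and 11.6 CPM treated (log2 0.39 ± 0.31, adjusted p = 0.34, and 0.06 ± 0.07 without replicate 1). Replicate 1 was the low library among the untreated ones. ITGB6 was called higher in ID3-KO U2OS at group means of 0.214 and 0.579 CPM, a call lost at a log2 difference of 0.995 without treated replicate 2. ITGB5 passed the adjusted p in AID-DIvA with differences of 0.75 in WT and 0.47 in ID3-KO. ITGB7 was at 2.89 to 4.39 CPM, and 93.8% of its strand-assigned fragments came from the opposite strand.

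Among the laminin alpha chains, LAMA4 (chr6:112429963-112576141, minus strand), found in the basement membranes of blood vessels and muscle, was lower in all 4 comparisons. It was at 1.39, 1.36 and 1.79 CPM in untreated and 0.451, 0.552 and 0.680 CPM in recovered WT AID-DIvA (log2 -1.42 ± 0.20, adjusted p = 5.6e-05). In ID3-KO AID-DIvA it fell from 8.04, 8.12 and 7.16 to 1.74, 1.78 and 2.32 CPM (log2 -1.99 ± 0.13, adjusted p = 2.5e-06). The untreated ID3-KO libraries were the highest of the AID-DIvA libraries. In WT U2OS it was at 2.48, 3.60 and 3.51 and 1.51, 1.37 and 1.70 CPM (log2 -1.05 ± 0.18, adjusted p = 0.0022), and the call was lost at a log2 difference of -0.95 without untreated replicate 2, -0.99 without untreated replicate 3 and -0.98 without treated replicate 2. Without untreated replicate 1 it was -1.20 ± 0.15. In ID3-KO U2OS it fell from 15.9, 15.3 and 15.2 to 3.55, 3.87 and 4.05 CPM (log2 -2.01 ± 0.08, adjusted p = 3.0e-16).

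LAMA1 (chr18:6941743-7117813, minus strand), the alpha chain of early embryonic basement membranes, was called higher in AID-DIvA, from 62.3, 61.3 and 63.4 to 192, 177 and 181 CPM in WT (log2 1.56 ± 0.05, adjusted p = 3.2e-11) and from 57.5, 53.7 and 57.2 to 174, 158 and 151 CPM in ID3-KO (log2 1.52 ± 0.07, adjusted p = 3.1e-07). In U2OS it passed the adjusted p but not the fold, with 0.73 ± 0.19 in WT (0.52 ± 0.04 without replicate 1) and 0.73 ± 0.04 in ID3-KO. LAMA3 and LAMB3 are laminin chains known from skin and other epithelia. LAMA3 was the scarcer, at 0.646, 0.618 and 0.633 CPM untreated and 1.88, 1.82 and 2.06 CPM recovered in WT AID-DIvA (log2 1.61 ± 0.15, adjusted p = 1.8e-06). ID3-KO AID-DIvA had 0.326, 0.314 and 0.472 and 0.741, 0.921 and 0.564 CPM (log2 1.05 ± 0.26, adjusted p = 0.0097). That call was lost without untreated replicate 1 (0.99), untreated replicate 2 (0.93) or recovered replicate 2 (0.81). In WT U2OS LAMA3 was at 0.975, 1.45 and 1.27 and 2.92, 1.79 and 2.16 CPM (log2 0.91 ± 0.23, adjusted p = 0.013, and 0.76 ± 0.18 without replicate 1), and in ID3-KO U2OS at 0.194, 0.337 and 0.374 and 1.61, 1.36 and 1.09 CPM (log2 2.14 ± 0.25, adjusted p = 8.0e-08).

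LAMB3 (chr1:209788215-209825811, minus strand) was called higher in AID-DIvA: 112, 116 and 115 CPM untreated and 271, 249 and 249.6 CPM recovered in WT (log2 1.17 ± 0.04, adjusted p = 3.7e-10), and 109, 101 and 118 and 292, 253 and 249 CPM in ID3-KO (log2 1.27 ± 0.08, adjusted p = 1.9e-06). In U2OS its difference was 0.36 ± 0.08 in WT (0.30 ± 0.04 without replicate 1) and 0.31 ± 0.05 in ID3-KO. The summed level of 10 epithelial markers was 289.7 to 467 CPM, nearly all from KRT8, KRT18 and CLDN4, and CLDN4, a tight junction claudin, was called higher in all 4 comparisons. ESRP1, another marker of this list, was called higher in both U2OS comparisons. KRT14, a skin keratin, was called lower in WT AID-DIvA, where its group mean went from 0.564 to 0.0677 CPM, and in WT U2OS, where it went from 2.72 to 0.309 CPM. The part of such cells in the LAMA3 and LAMB3 differences was not tested. LAMB2, a chain of neuromuscular and kidney basement membranes, was called lower in ID3-KO U2OS, from 224, 225 and 219.9 to 97.3, 88.9 and 102 CPM (log2 -1.21 ± 0.05, adjusted p = 5.4e-16). In WT U2OS it was at 202, 229 and 213 and 132, 129 and 119 CPM (log2 -0.75 ± 0.08, adjusted p = 1.9e-04, and -0.80 ± 0.04 without replicate 1). LAMA5, the alpha chain of most adult basement membranes, was at 183, 167 and 152 CPM untreated and 72.7, 92.0 and 104 CPM recovered in WT AID-DIvA (log2 -0.89 ± 0.14, adjusted p = 0.0024). LAMA2, LAMB1, LAMC1 and LAMC3 were called in none. LAMC1, the gamma chain of most laminins, was at group means of 399.7 to 499 CPM.

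The second question was which members differ between untreated ID3-KO and WT cells. These comparisons use the same untreated libraries as the treatment comparisons. In AID-DIvA 3 of 36 tested members were called higher (8.33% against 2.27% of all genes) and 3 lower (8.33% against 2.3%), and in U2OS 2 of 35 were higher (5.71% against 1.42%) and 5 lower (14.3% against 2.84%). Without replicate 1 of untreated WT U2OS there were again 2 higher (1.9% of all genes) and 5 lower (3.73%) in U2OS. By the adjusted p alone 12 were higher and 9 lower in AID-DIvA (18.6% and 18.1% of all genes) and 8 and 7 in U2OS (6.56% and 8.63%). ITGB2 and LAMA4 were called higher and ITGB3 lower under both cell line labels. LAMA4 was higher by 2.33 ± 0.11 in AID-DIvA (adjusted p = 1.5e-10) and by 2.27 ± 0.14 in U2OS (adjusted p = 1.1e-04), the latter 2.12 ± 0.08 without the library that stands apart. ITGB2 was at 3.29, 3.21 and 3.26 CPM in WT and 7.52, 6.83 and 8.87 CPM in ID3-KO AID-DIvA (log2 1.22 ± 0.10, adjusted p = 1.5e-07), and at 5.22, 4.83 and 5.04 and 12.8, 12.5 and 13.9 CPM in U2OS (log2 1.38 ± 0.09, adjusted p = 1.1e-04, and 1.41 ± 0.08 without WT replicate 1). Neither pair of groups overlapped.

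ITGB3 was lower in ID3-KO, at log2 differences of -1.09 ± 0.12 in AID-DIvA (adjusted p = 3.9e-06) and -2.50 ± 0.37 in U2OS (adjusted p = 0.0043), the latter -2.83 ± 0.11 without WT replicate 1. The ID3-KO libraries lay below the WT ones under both labels.

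Other members were called under 1 label, and most of those named here differed in the same direction under the other. There, mean TPM in untreated WT and ID3-KO were 0.777 and 0.459 for ITGAM, 3.66 and 2.30 for ITGB8 and 0.147 and 0.0843 for LAMA3. ITGA8, not tested in U2OS, was at 0 and 0.0743 TPM there. ITGA11 went the other way in AID-DIvA, at 0.572 and 0.653 TPM. In AID-DIvA ITGAM was lower (-1.49 ± 0.20) and ITGA8 was higher, with 44 fragments over the 3 ID3-KO and 0 over the 3 WT libraries. Against a floor of 3 fragments over the WT group this is at least 13.6-fold higher, for counting error only. In U2OS ITGA11 (-1.22 ± 0.22), ITGB8 (-1.13 ± 0.20) and LAMA3 (-2.01 ± 0.29) were lower, at -1.40 ± 0.17, -1.34 ± 0.06 and -2.15 ± 0.27 without WT replicate 1. The ITGA11 call ended without WT replicate 2 (log2 difference -0.99) and without any of the 3 ID3-KO replicates (adjusted p = 0.053 to 0.055), and leaving out ID3-KO replicate 2 or 3 ended that of ITGB8 (adjusted p = 0.053 and 0.051). ITGB1 passed the adjusted p but not the fold, with 0.64 ± 0.04 in AID-DIvA and 0.54 ± 0.14 in U2OS (0.39 ± 0.03 without WT replicate 1). ITGA6 did likewise, with 0.77 ± 0.05 and 0.94 ± 0.13 (0.80 ± 0.04). LAMA5 was higher by 0.64 ± 0.09 and 0.54 ± 0.08 (0.54 ± 0.07) on the same terms.

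**Figure D4:**
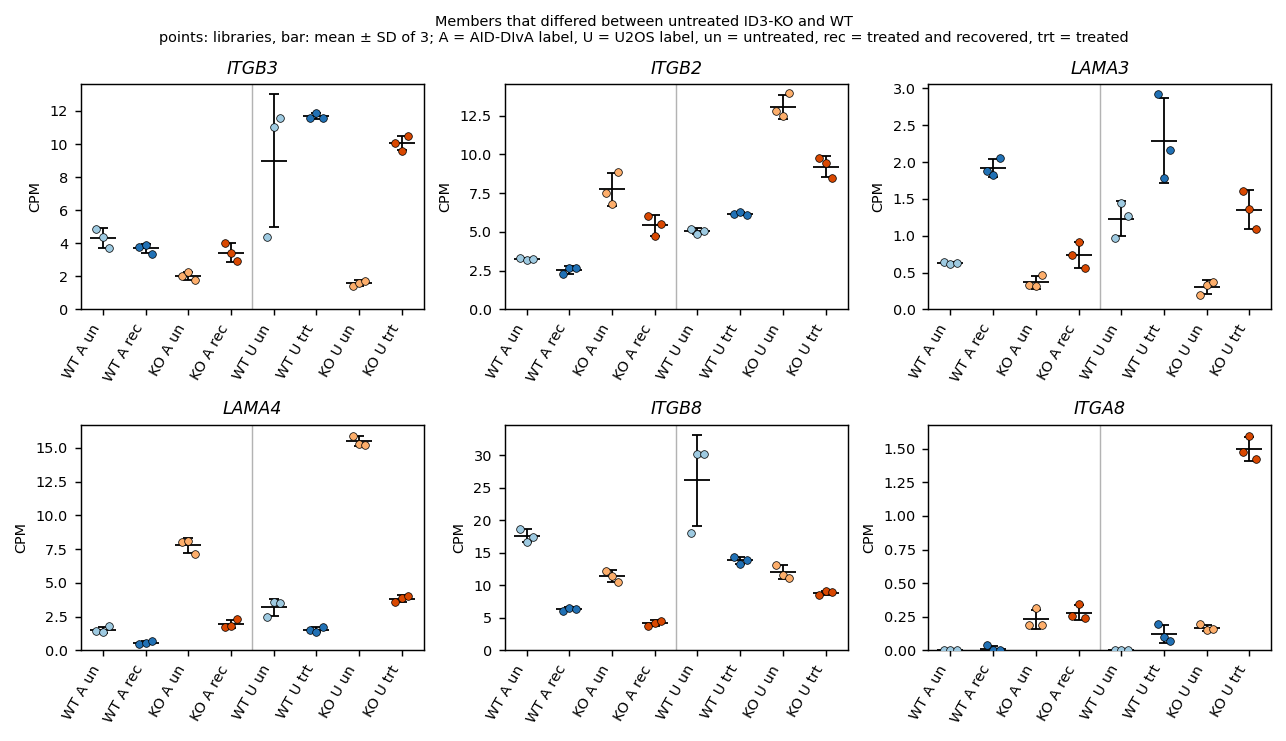
CPM (linear axes from 0) in each library of 6 genes called between untreated ID3-KO and WT cells under at least 1 cell line label; points are libraries and bars the mean ± SD of 3. ITGB2 and LAMA4 are higher and ITGB3 lower in untreated ID3-KO under both labels, and replicate 1 of untreated WT U2OS is low for ITGB3 (4.37 CPM against 11.1 and 11.6) and ITGB8.

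The third question was whether the response to the drug differs between genotypes, which was tested as an interaction (ID3-KO response minus WT response) and called by the adjusted p alone. In AID-DIvA 2 of 36 members had a more positive response in ID3-KO (5.56% against 0.762% of all genes) and 0 a more negative one by edgeR (against 0.451%), where 2 had an unadjusted p under 0.05 and DESeq2 called 1. The 2 were ITGAM (1.19 ± 0.24, adjusted p = 0.018) and ITGB3 (0.97 ± 0.19, adjusted p = 0.017). For ITGAM the untreated ID3-KO libraries were lower than the WT ones and the recovered groups were at 4.41 ± 0.750 and 5.26 ± 0.254 CPM (SD, n = 3). For ITGB3 the recovered groups were at 3.44 ± 0.558 CPM in ID3-KO and 3.69 ± 0.288 CPM in WT, against 2.02 ± 0.254 and 4.31 ± 0.595 CPM untreated. Each of these 2 calls was lost on leaving out any 1 of 4 libraries. The highest adjusted p was 0.087 for ITGAM, without untreated ID3-KO replicate 2, and 0.058 for ITGB3, without untreated WT replicate 1.

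In U2OS 1 of 37 members had a more positive response in ID3-KO (2.7% against 1.1%) and 5 a more negative one (13.5% against 1.06%). ITGB3 differed most (2.28 ± 0.37, adjusted p = 0.0043, and 2.61 ± 0.12 without the library that stands apart). Its treated groups were close, at 10.1 ± 0.446 CPM in ID3-KO and 11.7 ± 0.181 CPM in WT, and the untreated groups apart. The members with a more negative response were LAMA4 (-0.96 ± 0.18, adjusted p = 0.014), ITGB2 (-0.80 ± 0.12, adjusted p = 0.0017), LAMA5 (-0.57 ± 0.10, adjusted p = 0.0073), ITGAX (-0.48 ± 0.09, adjusted p = 0.014) and LAMB2 (-0.46 ± 0.10, adjusted p = 0.023). LAMA5 was at 236, 247 and 233 and 262, 274 and 257 CPM in untreated and treated WT and at 384, 329 and 333 and 260.0, 243 and 275 CPM in ID3-KO. The LAMB2 call was lost on leaving out any of 7 libraries, the ITGAX call on any of 3 and the LAMA4 call on any of 2. Without replicate 1 of untreated WT U2OS these were -0.81 ± 0.15, -0.83 ± 0.12, -0.56 ± 0.08, -0.45 ± 0.09 and -0.41 ± 0.07 in the same order. There were then 7 members with a more positive response (4.46% of all genes) and 6 with a more negative one (4.56%). The 6 added positive ones were ITGA11, ITGB8, LAMA1, LAMA2, LAMA3 and LAMB1, with differences from 0.21 ± 0.06 for LAMA1 to 1.38 ± 0.33 for LAMA3, and the added negative one was ITGB4 (-0.46 ± 0.12).

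The treated U2OS and the recovered AID-DIvA responses were then compared in 1 fit of all 24 libraries, again by the adjusted p alone. Recovery and cell line label cannot be told apart in it. In WT 12 members had a more positive response in U2OS (22.8% of all genes did) and 8 a more negative one (22.6%), and in ID3-KO 13 (24.3%) and 10 (21.7%). Without replicate 1 of untreated WT U2OS these were 13 (23.0%) and 9 (24.1%) in WT and 17 (26.0%) and 10 (25.8%) in ID3-KO. ITGA1 differed by 1.44 ± 0.19 in WT and 1.81 ± 0.20 in ID3-KO, ITGA9 by 1.505 ± 0.20 and 1.35 ± 0.20, and ITGA2B by 1.49 ± 0.16 and 1.63 ± 0.16. Without replicate 1 of untreated WT U2OS the WT differences were 1.23 ± 0.15, 1.38 ± 0.19 and 1.55 ± 0.15. On the negative side stood LAMB3, with -0.82 ± 0.10 and -0.97 ± 0.10, LAMA1, with -0.83 ± 0.16 and -0.80 ± 0.16, and ITGB5, with -0.84 ± 0.08 and -0.58 ± 0.08. ITGAM and ITGAX also passed on this side, ITGAX at -0.53 ± 0.11 in WT and -0.77 ± 0.11 in ID3-KO, and ITGAM by a difference of -0.61 ± 0.23 in WT and -1.74 ± 0.27 in ID3-KO, where the sign is U2OS minus AID-DIvA. The ITGAM call in WT was lost without replicate 1 of untreated WT U2OS (-0.44 ± 0.22, adjusted p = 0.11) and without any of 3 other libraries (adjusted p = 0.051 to 0.071). Without that replicate the WT differences were -0.88 ± 0.09 for LAMB3, -1.05 ± 0.07 for LAMA1, -0.80 ± 0.07 for ITGB5 and -0.57 ± 0.11 for ITGAX. For ITGA2 the difference did not pass in WT (0.62 ± 0.30, adjusted p = 0.097, and 0.34 ± 0.27 without that replicate) or in ID3-KO (0.68 ± 0.29, adjusted p = 0.064), and for LAMA4 it was 0.38 ± 0.25 (0.22 ± 0.22 without it) and -0.02 ± 0.19.

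Genes that work with these receptors were read from lists chosen by function. Of 36 integrin adaptors and signalling proteins, 35 were tested in each treatment comparison. In the order WT and ID3-KO AID-DIvA, WT and ID3-KO U2OS, 2, 2, 1 and 1 were called higher (4.86%, 4.9%, 13.6% and 14.6% of all genes were) and 2, 1, 3 and 4 lower (2.52%, 2.56%, 5.06% and 5.77%). TNS4, a tensin of the cell's adhesion sites, rose in all 4, by 2.52 ± 0.17 and 2.95 ± 0.19 in AID-DIvA and by 2.35 ± 0.17 in WT U2OS. TNS3, another tensin, fell in all 4, from -1.01 ± 0.05 in ID3-KO AID-DIvA to -2.07 ± 0.05 in ID3-KO U2OS. The medians of the list were -0.011, -0.077, -0.17 and -0.15. Another list held 31 genes of other matrix ligands, basement membrane proteins and cell-surface ligands such as ICAM1 and ICAM5. Of these 27 or 28 were tested, and 0, 4, 11 and 9 were called higher and 2, 2, 2 and 1 lower. These counts are to be read against the same shares of all genes, and the medians were 0.16, 0.14, 0.35 and 0.37. ICAM genes were among the higher calls in all but WT AID-DIvA, so these are not counts of matrix genes alone. NID2, a nidogen that links laminin to collagen IV, rose by 2.58 ± 0.11 in WT and 2.95 ± 0.08 in ID3-KO U2OS, and COL4A4, a collagen IV chain, by 2.06 ± 0.11 and 2.01 ± 0.06. COL4A4 fell in recovered WT AID-DIvA (-1.05 ± 0.08). Of 8 laminin receptors that are not integrins, 0, 0, 1 and 0 were called higher and 1, 1, 0 and 0 lower, to be read against the same shares. SDC2, a syndecan, was called lower in AID-DIvA (-1.53 ± 0.08 in WT and -1.80 ± 0.06 in ID3-KO). SDC4 was called higher in WT U2OS (1.39 ± 0.07). Without a call, SDC2 group means in U2OS went from 48.1 to 35.2 CPM in WT and from 85.9 to 45.2 CPM in ID3-KO. Those of SDC4 went from 163 to 296 CPM in ID3-KO U2OS. The others were not called in the 4 comparisons.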

How the data were processed

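RNA-seq was performed on 24 libraries of 8 groups, prepared with a stranded total RNA kit and sequenced as read pairs. Per the study's methods and the submitters' processing notes, reads were aligned to hg19/GRCh37 with STAR and counted per gene with featureCounts. The authors deposited raw counts of fragments per gene, without regard to strand and for each strand, and TPM values made by them from the counts of either strand. The series calls the replicates biological, and nothing else says how the cultures were kept apart, so p-values measure the spread between these samples.

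Genes were matched by symbol. Counts of either strand were tested with edgeR 4.0.16 in R 4.3.3 (TMM factors, filterByExpr, robust quasi-likelihood F test), separately for each comparison, with Benjamini-Hochberg adjustment over all genes tested. A gene was called where its log2 difference lay beyond 1 or -1 and its adjusted p was under 0.05. Interactions and differences between responses were called by the adjusted p only. Standard errors were taken from the fold change and its F statistic. CPM were computed with TMM factors over all 24 libraries. Tested on simulated data, recovery was counted at an adjusted p under 0.05 with the right sign and no fold threshold. The fit so recovered 90% of 2-fold changes in WT AID-DIvA (20289 genes) and 64% in WT U2OS (21797 genes). The median fitted sizes were 0.99 and 0.993 on the log2 scale, so many changes of this size would miss the fold needed for a call. For the interaction in U2OS 54% were recovered (22647 genes).

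Values in every library were printed for members called in a treatment comparison at a group mean of at least 1 CPM, for members with an interaction, and for members that differed between untreated genotypes under both labels, and others were given by range. Of each other list, at most the 4 genes with the smallest adjusted p were named. The members and the lists were chosen with earlier results of these data known. Alternatives were DESeq2 1.42.0, its size factors, no filter, reverse-strand counts, a replicate block, all 12 libraries of a label in 1 fit, the adjusted p alone and leaving out each library. Counts cover all 38 members, of which 1 is not reported by itself here. Protein sequences were not used here, and promoter windows are from RefSeq on GRCh38.p14, whose coordinates are not those of hg19.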

Additional observations from a re-analysis of the deposited data

Results flagged for a closer look

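The response to mocetinostat differed between genotypes by the interaction test for 2 genes in AID-DIvA, at log2 differences of 1.19 for ITGAM and 0.97 for ITGB3. In U2OS it differed for 6 genes, at 2.28 for ITGB3, -0.96 for LAMA4, -0.80 for ITGB2, -0.57 for LAMA5, -0.48 for ITGAX and -0.46 for LAMB2. Positive values mean a more positive response in ID3-KO.

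The treated U2OS response and the recovered AID-DIvA response differed by the test of that difference. In WT the differences beyond 1 were 1.5 for ITGA9, 1.49 for ITGA2B, 1.44 for ITGA1, 1.18 for ITGB4 and 1.05 for LAMA5. In ID3-KO they were 2.86 for ITGA8, 1.91 for ITGB3, 1.81 for ITGA1, 1.75 for ITGA11, 1.63 for ITGA2B, 1.35 for ITGA9, 1.09 for LAMA3, 1.04 for ITGA4, 1.0 for ITGB8 and -1.74 for ITGAM. The LAMA3 call was lost without replicate 3 of recovered or of untreated ID3-KO AID-DIvA (adjusted p = 0.065 and 0.084). It was also lost without replicate 1 of untreated or of treated ID3-KO U2OS (adjusted p = 0.079 and 0.056).

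The separate counts of each strand show that part of the fragments of 7 members, over all libraries, lay on the opposite strand. The comparisons above counted fragments without regard to strand, which included these to differing degrees. For ITGB7, ITGAD and ITGA2B nearly all were included, at totals of 5049, 1338 and 8578 beside 316, 245 and 6506 on their own strand. For ITGA9, ITGAE and ITGAL the totals of 4969, 20857 and 171 were closer to the own-strand ones of 4450, 20228 and 154. For LAMA5 the total of 317736 was below the 320719 of its own strand. The share of strand-assigned fragments was 93.8% for ITGB7, 81.7% for ITGAD, 40.0% for ITGA9, 33.0% for ITGAL, 24.2% for ITGA2B, 23.1% for ITGAE and 22.2% for LAMA5.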

How the results depend on the processing

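With the adjusted p alone, the members higher and lower were 15 and 12 in WT AID-DIvA, 16 and 9 in ID3-KO AID-DIvA, 15 and 4 in WT U2OS, 21 and 7 in ID3-KO U2OS, and 12 and 9 between untreated genotypes in AID-DIvA, with 8 higher in U2OS. Without the filter on low counts the interaction had 5 more positive members in AID-DIvA and 4 in U2OS. DESeq2 and its size factors gave 2 in U2OS, and DESeq2 gave 1 more negative member in AID-DIvA. Leaving out each library in turn gave 0 to 2 lower members in WT U2OS, 3 to 5 lower between untreated genotypes in U2OS, 0 to 3 more positive and 0 to 1 more negative interactions in AID-DIvA, and 1 to 7 more positive and 2 to 6 more negative ones in U2OS. The 7 came without replicate 1 of untreated WT U2OS. The causes were not tested. Of 2055 values of 107 called gene and comparison pairs under the alternatives, 1973 kept direction and call, 82 kept direction only, 74 of these on leaving out a library, and 0 reversed. Without the filter ITGA2 in WT AID-DIvA had an adjusted p of 0.053.

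Replicate numbers did not pair the samples: same-numbered libraries correlated at -0.11 to 0.05 in their deviations from the group means. With the replicate number as a block, the WT response difference between labels had 9 members on its negative side in place of 8, and no other count changed. Depth limits members under 1 CPM, where 4 to 8 entries in each group lie.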
